A study of Mus musculus with 50 samples.

Results

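Pgk1, Col4a6, S100g, Tmsb15b2 and G530011O06Rik are 5 X-linked genes that were chosen by their allelic shares: the 129 chromosome gave under 10% of their allele-assigned reads, on average over libraries, in differentiated embryonic stem (ES) cells of both genotypes with a deletion of Repeat B of Xist, RepB+/- and RepB-/-. The tables list 24391 genes, of which 1063 lie on the X chromosome, and 376 X-linked genes other than Xist averaged at least 20 allele-assigned reads per ES library. Of these 376 genes, 9 (2.39%) met the rule: the 5 members and Eif2s3x, Cxx1c, Xlr3b and 1700011M02Rik. Just inside the threshold lay Col4a6, whose higher RepB mean share was 9.43%, and just outside it lay Zmat1 with 10.5% and Slc25a53 with 10.97%. The shares chose the members and are given below as descriptions, with no test.

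Xist is the long non-coding RNA that coats one X chromosome of female cells and silences most of its genes. Repeat B is a tandem repeat in its first exon that recruits Polycomb complexes, which modify histones and compact chromatin. Silencing is seldom complete over the whole chromosome, and genes differ in how tightly they are shut on the inactive X. In a cross of 2 mouse strains, reads over a strain variant show which chromosome a transcript came from.

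Poly(A) RNA was sequenced from ES cells and from mouse embryonic fibroblasts (MEF), all of a CAST/Ei x 129/Sv/Jae background, in 8 of the series' 50 samples; the other 42 are not used here. The ES groups were RepB+/-, RepB-/- and wild type (WT), with 2 libraries each, and the MEF groups were a line with loss of Repeat B (RepB) and a WT line, with 1 library each. ES cells spent 3 days on irradiated MEF feeders, were freed of them, and were differentiated for 4 days as suspended embryoid bodies and for 10 more days on gelatin-coated plates. The labels do not say which allele of RepB+/- cells is deleted, whether the RepB MEF line lost one or both copies, or whether the 2 libraries of a genotype came from separate clones or cultures, so p-values measure only the spread between these libraries. MEF values, from 1 library per line, carry no test.

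Library totals ran from 8000722 to 28045645 counts in ES cells and were 18631736 in RepB MEF and 12126941 in WT MEF. Reads given to an allele made up 26.7% to 28.0% of each library. Over all genes, 129 reads outnumbered CAST reads in every ES library, as in the first WT library with 4200827 and 1107687. In MEF they were near even, with 2681330 and 2533114 in RepB and 1626256 and 1732629 in WT. Shares over all genes thus had unlike baselines in ES cells and MEF, and the cause was not tested. Xist, the targeted gene, averaged 863 CPM in RepB+/-, 989 CPM in RepB-/- and 906 CPM in WT ES cells, and 97.5%, 88.2% and 98.7% of its allele-assigned reads came from 129. The deleted repeat is not separated in a count per gene, so these values do not check the deletion. Xist RNA thus came mainly from the 129 X in all 3 genotypes. The differentiated cultures also differed in cell-type markers. Summed levels of 8 endoderm and yolk sac markers were 788 and 703 CPM in RepB+/-, 649 and 567 CPM in RepB-/-, and 302 and 326 CPM in WT ES cells. For 6 pluripotent cell markers the sums were 560 and 409, 423 and 355, and 143 and 169 CPM, in the same order of genotypes, and for 6 cardiac muscle markers 226 and 243, 182 and 187, and 465 and 510 CPM. Fibroblast markers reached 1 CPM for 5 of 8 genes in RepB MEF, where Dcn, Lum and Thy1 did not, and for 7 of 8 in WT MEF, where Lum did not. Their part in the results below was not tested.

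Against the rest of the chromosome, the members stood low in RepB cells. The median X-linked gene gave 33.7% of its allele-assigned reads from 129 in RepB+/-, 34.9% in RepB-/- and 5.90% in WT ES cells (376 genes). The members' mean shares ran between 1.61% and 9.43% in RepB+/-, between 0.85% and 8.90% in RepB-/-, and between 0% and 1.59% in WT cells. In WT cells 4 of the 5 members, all but Col4a6, had no 129 read, as had 30 of the 376 X-linked genes (7.98%). Those 30 genes, with the 4 members included, had median 129 shares of 18.1% in RepB+/- and 20.5% in RepB-/- cells. Over both libraries of a genotype, reads from 129 numbered 200 and 259 for Col4a6, 42 and 54 for S100g, 14 and 12 for Pgk1, 6 and 5 for Tmsb15b2 and 1 and 1 for G530011O06Rik in RepB+/- and RepB-/- cells. Of the allele-assigned Xist reads in WT libraries, 61 of 5424 and 48 of 3372 were given to CAST, so single reads of the minor allele carry little weight. In bulk RNA, a low share from every cell and a high share from few cells cannot be told apart.

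**Figure D1:**
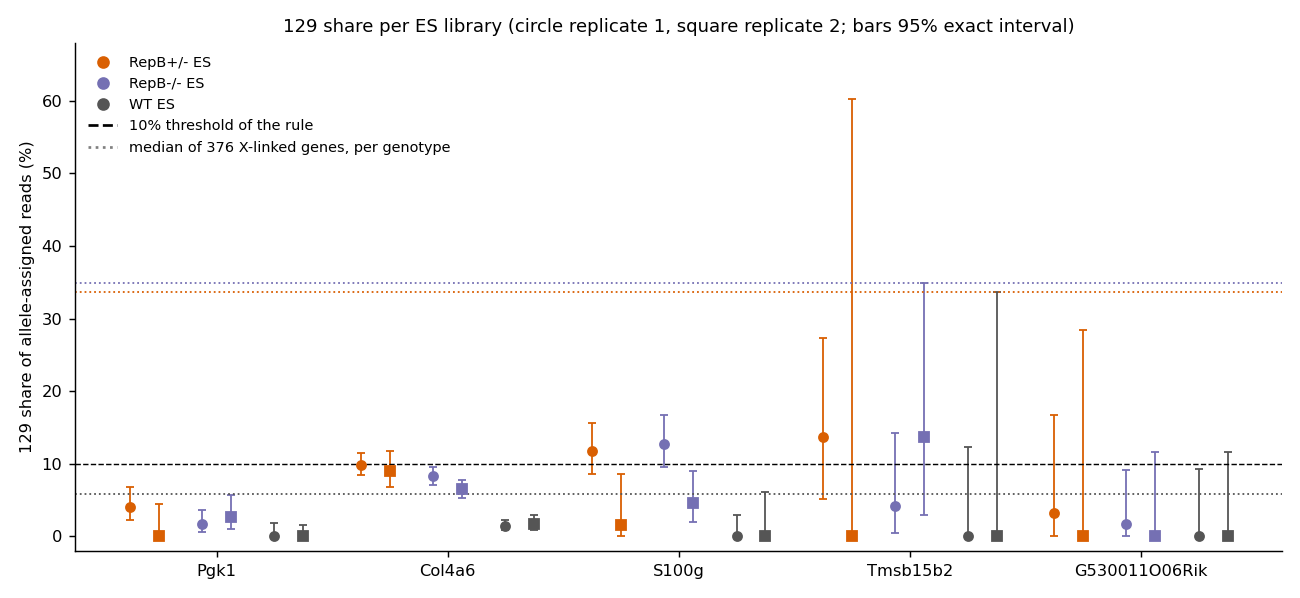
Share of allele-assigned reads from 129 (%, vertical axis) for each gene and ES library; points are libraries, bars are exact 95% intervals, the dashed line is the 10% threshold and the dotted lines are the medians of 376 X-linked genes in each genotype. Col4a6 lay between 6.51% and 9.84% in the 4 RepB libraries, against 1.45% and 1.73% in WT. S100g (11.7% and 12.8%) and Tmsb15b2 (13.6% and 13.6%) each lay above 10% in a library of RepB+/- and a library of RepB-/-.

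Pgk1 encodes phosphoglycerate kinase, an ATP-producing enzyme of glycolysis, and its promoter is a classic example of an X-linked housekeeping promoter with many CG dinucleotides. Its listed exon is chrX:103382439-103382654 of build mm9, 2.73 Mb from the position listed for Xist, the nearest of the members. The 250 bases before its start (RefSeq, GRCm38.p6) are shown because they hold 17 CG dinucleotides, the most of any member, beside those of S100g, which hold 2, the fewest. Capitals mark CG in both.
Pgk1 (GRCm38.p6, chrX:106186850-106187099, plus strand): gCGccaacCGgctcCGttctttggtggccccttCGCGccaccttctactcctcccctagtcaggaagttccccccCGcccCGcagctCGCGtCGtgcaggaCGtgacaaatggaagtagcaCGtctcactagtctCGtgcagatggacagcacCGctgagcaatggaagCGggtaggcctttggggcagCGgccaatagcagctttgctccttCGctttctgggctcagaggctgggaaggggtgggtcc
S100g (GRCm38.p6, chrX:162964600-162964849, minus strand): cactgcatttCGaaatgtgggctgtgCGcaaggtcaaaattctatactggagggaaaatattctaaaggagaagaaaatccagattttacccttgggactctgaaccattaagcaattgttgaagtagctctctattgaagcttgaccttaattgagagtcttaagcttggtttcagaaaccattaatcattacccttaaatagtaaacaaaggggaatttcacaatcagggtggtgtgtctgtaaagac
The median was 6 CG dinucleotides over 32851 RefSeq promoter windows of 250 bases and 5 over the 1223 on the X chromosome; Tmsb15b2 had 7, Col4a6 3 and the X-linked entry of G530011O06Rik 3. All 5 members were found in the promoter table. The letters TATAAA, searched on both strands, were in none of the members' windows and in 12.4% of all windows. The members thus span CG-rich and CG-poor windows.

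Pgk1 had 14 of 344 and 0 of 81 allele-assigned reads from 129 in the RepB+/- libraries, 6 of 357 and 6 of 224 in the RepB-/- libraries, and 0 of 196 and 0 of 232 in the WT libraries. The shares were 4.07% and 0% in RepB+/-, 1.68% and 2.68% in RepB-/-, and 0% in both WT libraries, where a count of 0 allows up to 1.53% and 1.29%. Of the 4 RepB libraries 3 had 129 reads and no WT library did, and the second RepB+/- library, the shallowest, overlapped WT. Counting intervals and limits of this kind cover counting error only. The nearest measured neighbours stood higher: Atp7a, a copper-transporting ATPase 160 kb away, averaged 31.1% ± 3.3 in RepB+/-, 34.9% ± 0.2 in RepB-/- and 3.20% ± 0.24 in WT cells (SD, n = 2 each). Taf9b, a component of transcription initiation complexes 19.8 kb on the other side, averaged 7.5%, 26.7% and 0%, and its RepB+/- value rests on 20 reads and 1 read. Fnd3c2 averaged 55.6%, 57.8% and 42.2%. Cox7b, a subunit of cytochrome c oxidase, was at 95.5%, 94.1% and 93.4%, so that its share was high in WT cells as well. It was also at 92.9% in RepB MEF and 95.7% in WT MEF. Whether so constant a share comes from the chromosome or from the assignment of alleles was not tested.

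The part of Pgk1 reads that received an allele was smaller in RepB cells. It was 39.0% and 50.3% in RepB+/-, 44.5% and 45.6% in RepB-/-, and 71.3% and 83.5% in WT libraries, with no overlap between RepB and WT. Pgk1 reads given to CAST were 11.6 and 10.5 CPM in RepB+/-, 12.1 and 9.96 CPM in RepB-/-, and 10.1 and 19.7 CPM in WT. Reads given to neither allele were 18.9 and 10.3 CPM in RepB+/-, 15.4 and 12.2 CPM in RepB-/-, and 4.08 and 3.90 CPM in WT. The CAST levels thus overlapped between genotypes and the levels without an allele did not. For comparison, the median X-linked gene had 21.2%, 21.3% and 20.2% of its reads assigned in RepB+/-, RepB-/- and WT cells. After these values were seen, the ratio of assigned to unassigned reads was tested in edgeR with the library as a block. For Pgk1 it fell by 2.07 on the log2 scale in RepB-/- against WT (SE 0.29, adjusted p = 0.0435, edgeR), 1 of 2 genes called among 11597 (0.0172%) and the single one called among 377 X-linked genes, Xist included. In RepB+/- against WT the change was -2.21 (SE 0.30, adjusted p = 0.0685, edgeR), and no gene was called; Pgk1 was called without WT replicate 1 (adjusted p = 0.0242) or RepB+/- replicate 2 (adjusted p = 0.0211). The call in RepB-/- was lost without WT replicate 2 (-1.60, adjusted p = 0.489), without RepB-/- replicate 1 (-2.04, adjusted p = 0.485) or without RepB-/- replicate 2 (-2.10, adjusted p = 0.304, edgeR in each case). The 129 share of Pgk1 therefore describes at most 50.3% of its reads in RepB cells, and which chromosome the other reads came from is not given by the counts. RefSeq lists 3 pseudogenes named after Pgk1, on chromosomes 3, 12 and 16, and how the counting treated reads that map to several places is not given in the sources used here, so its level and its share are uncertain.

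All Pgk1 reads were at 31.0 and 20.8 CPM in RepB+/-, 27.7 and 22.4 CPM in RepB-/-, and 14.2 and 23.6 CPM in WT libraries, and the genotypes overlapped. The log2 fold changes of 0.52 (SE 0.22, adjusted p = 0.114) and 0.44 (SE 0.21, adjusted p = 0.194) in RepB+/- and RepB-/- against WT did not pass the edgeR test; they passed without WT replicate 2 (0.90, adjusted p = 0.0285, and 0.83, adjusted p = 0.0451, edgeR), and in RepB+/- also without RepB+/- replicate 2 (0.73, adjusted p = 0.0164). The changes were 0.16 and 0.09 without WT replicate 1, 0.17 in RepB+/- without RepB+/- replicate 1, and 0.27 in RepB-/- without RepB-/- replicate 1. Per kilobase of listed exon length, Pgk1 averaged 14.2 ± 3.9 CPM in RepB+/-, 13.7 ± 2.0 in RepB-/- and 10.3 ± 3.6 in WT cells (SD, n = 2 each), the third lowest WT level among 22 genes of glycolysis and glucose uptake. Only Pgk2, at 0, and Eno1, at 0.46 CPM per kilobase, stood lower in WT cells. Whether reads that map to several places lowered these levels was not tested. Of the 21 genes of glycolysis and glucose uptake tested, 1 rose and 7 fell in RepB+/- against WT. In RepB-/- against WT 0 rose and 4 fell. Over all 15149 genes, 16% and 12.8% were called in RepB+/- and RepB-/-. Their median log2 change was -0.27 and -0.29, beside 0.02 and 0.01 over all genes tested. Pgam2, a muscle phosphoglycerate mutase, fell by 1.21 on the log2 scale in RepB-/- against WT (SE 0.15, adjusted p = 0.00012, edgeR), and Aldoc, an aldolase, fell by 0.67 (SE 0.11, adjusted p = 0.00079). Cardiac muscle markers were also lower in the RepB libraries, as given above, and their part in these changes was not tested. Both comparisons share the WT libraries. In MEF Pgk1 had 127 reads in RepB and 63 in WT, or 6.82 and 5.20 CPM, with 0 of 101 and 0 of 58 allele-assigned reads from 129, which allows up to 2.97% and 5.17%. Of its MEF reads, 79.5% in RepB and 92.1% in WT received an allele.

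**Figure D2:**
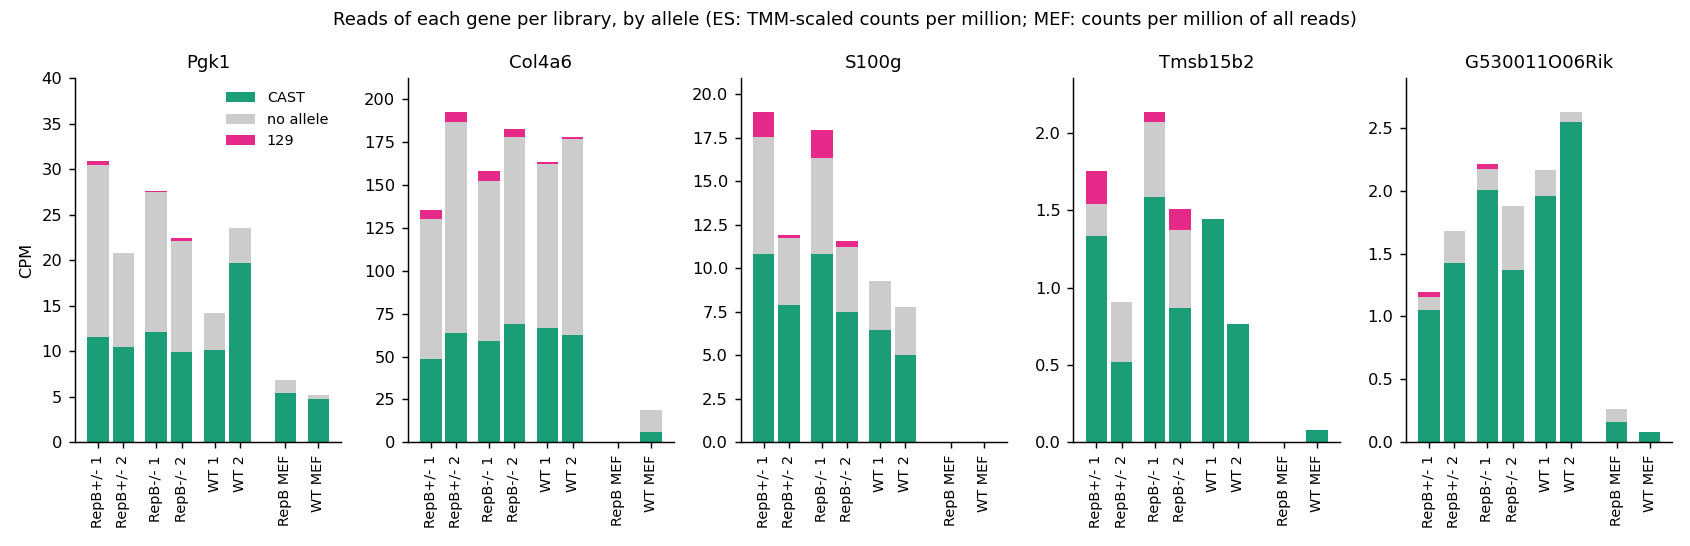
Level of each gene (CPM, vertical axis, own scale per gene) in 6 ES and 2 MEF libraries, split into reads given to CAST, to neither allele and to 129. For Pgk1 the part with no allele was 10.3 to 18.9 CPM in RepB ES libraries, against 4.08 and 3.90 CPM in WT, and Col4a6 had 0.43 CPM in RepB MEF, against 19.0 CPM in WT MEF.

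Col4a6 encodes the alpha 6 chain of type IV collagen, the network-forming collagen of basement membranes, and lies head to head with Col4a5, the alpha 5 chain, with which it shares a promoter region. Its listed exon is chrX:137599946-137601521 (mm9), 36.9 Mb from Xist. It was the most deeply read member, averaging 1269 allele-assigned reads per ES library. Reads from 129 were 151 of 1534 and 49 of 543 in RepB+/-, 154 of 1865 and 105 of 1614 in RepB-/-, and 19 of 1308 and 13 of 751 in WT libraries. These are shares of 9.84% and 9.02% in RepB+/-, 8.26% and 6.51% in RepB-/-, and 1.45% and 1.73% in WT. Every RepB library lay above both WT libraries. Levels of 129 reads averaged 5.82 ± 0.73 CPM in RepB+/-, 5.06 ± 0.36 CPM in RepB-/- and 1.04 ± 0.09 CPM in WT cells (SD, n = 2 each). Col4a6 was thus under the threshold in RepB cells, with reads from 129 counted in every library.

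Reads of Col4a6 from CAST averaged 56.2 ± 10.8 CPM in RepB+/-, 64.0 ± 7.0 CPM in RepB-/- and 64.5 ± 2.8 CPM in WT. All reads were at 135 and 193 CPM in RepB+/-, 158 and 183 CPM in RepB-/-, and 163 and 178 CPM in WT libraries, so the genotypes overlapped. The log2 fold changes of -0.06 (SE 0.14, adjusted p = 0.795) and -0.00 (SE 0.14, adjusted p = 0.998) against WT did not pass the edgeR test, and their sign changed with the scaling or the libraries used. Col4a5, 310 kb away by listed exons, had 129 shares of 12.0% ± 2.3 in RepB+/-, 13.8% ± 0.05 in RepB-/- and 1.90% ± 0.30 in WT cells (SD, n = 2 each). Mid2, a ubiquitin ligase 387 kb away on the other side, averaged 14.7%, 11.6% and 0.63%. Psmd10, a proteasome assembly factor, was the nearest measured gene by listed exons, 117 kb away. It averaged 40.7%, 36.6% and 0%. Nxt2, an RNA export factor 1061 kb away, averaged 39.0%, 51.1% and 13.9% in RepB+/-, RepB-/- and WT. Mid2, Psmd10 and Nxt2 averaged 58.2, 58.7 and 37 allele-assigned reads per library, far fewer than Col4a6.

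Of 17 type IV collagen and basement membrane genes, all tested, 2 rose and 2 fell in RepB+/-, and 1 rose and 1 fell in RepB-/-, against WT, beside 16% and 12.8% called over all genes. Their median log2 change was -0.13 and -0.14, beside 0.02 and 0.01 over all genes. Epithelium markers, 5 genes, were also lower in RepB libraries, with sums of 1066 and 1014 CPM in RepB+/-, 1074 and 871 CPM in RepB-/-, and 1455 and 1551 CPM in WT; fibroblast markers summed to 16651 and 31595, 19553 and 22839, and 20268 and 25531 CPM, with overlap. Their part was not tested. Nid1, the linker protein nidogen, fell by 0.48 on the log2 scale in RepB-/- against WT (SE 0.14, adjusted p = 0.0313, edgeR). Col4a3, another chain of type IV collagen, rose by 1.97 (SE 0.62, adjusted p = 0.0488), at under 1.2 CPM in each library. In MEF, 8 reads of Col4a6 were counted in RepB and 230 in WT, or 0.429 and 19.0 CPM. That is 44.2-fold lower in RepB (exact 95% interval 22.0 to 103.5, counting error only, no replicates). Among 11680 genes averaging at least 1 CPM, 2.7% were past 4-fold lower and 45 had a lower ratio than Col4a6. Col4a5 had 883 reads in RepB and 874 in WT, or 47.4 and 72.1 CPM. All MEF reads of Col4a6 given an allele, 4 in RepB and 74 in WT, were from CAST, and the 4 reads of RepB set no useful limit. The 2 lines also differed in the fibroblast markers Dcn and Thy1, as given above.

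S100g encodes calbindin-D9k, a small cytosolic calcium-binding protein induced by vitamin D in the intestine and present in placenta and uterus. Its listed exon is chrX:159399924-159400172 (mm9), 58.7 Mb from Xist. Reads from 129 were 41 of 349 and 1 of 62 in RepB+/-, 46 of 360 and 8 of 172 in RepB-/-, and 0 of 125 and 0 of 59 in WT libraries. The shares were 11.7% and 1.61% in RepB+/-, 12.8% and 4.65% in RepB-/-, and 0% in WT, where 0 reads allow up to 2.40% and 5.08%. In both RepB genotypes the first library lay above 10% and the second below it, so the mean of 6.68% ± 7.17 in RepB+/- and of 8.71% ± 5.75 in RepB-/- (SD, n = 2 each) covers a wide spread. With the reads of both libraries summed, the shares were 10.2% and 10.1%, above the threshold in both genotypes. The nearest measured neighbours, Syap1, Ctps2, Ap1s2 and Zrsr2, averaged 30.9% to 44.8% in RepB+/- and 28.0% to 46.1% in RepB-/- cells.

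S100g was the member whose level of all reads changed. It was at 19.0 and 11.9 CPM in RepB+/-, 17.9 and 11.6 CPM in RepB-/-, and 9.24 and 7.80 CPM in WT libraries. All 4 RepB libraries lay above both WT libraries. It rose by a log2 fold change of 0.90 in RepB+/- against WT (SE 0.24, adjusted p = 0.0181) and of 0.79 in RepB-/- against WT (SE 0.23, adjusted p = 0.0359, edgeR). S100g was thus 1 of 5 members called in each comparison, beside 16% of 15149 genes called in RepB+/- and 12.8% in RepB-/-, or 9.12% and 7.27% called higher. Of the 562 X-linked genes tested, 37.9% and 36.7% were called. The call was lost without the first RepB library, with 0.47 (adjusted p = 0.269) in RepB+/- and 0.43 (adjusted p = 0.382) in RepB-/-, and also without WT replicate 1 (1.03 and 0.92) or WT replicate 2 (0.79 and 0.68; adjusted p between 0.0563 and 0.225 over these, edgeR). Reads given to CAST were at 10.8 and 7.88 CPM in RepB+/-, 10.8 and 7.50 CPM in RepB-/-, and 6.45 and 5.00 CPM in WT, also without overlap. The difference was thus seen in the reads of the CAST chromosome too, and reads from 129 averaged 0.784 CPM in RepB+/- and 0.977 CPM in RepB-/-. Endoderm and yolk sac markers were higher in the same 4 libraries, as given above, and their part in the level of S100g was not tested. No read of S100g was counted in either MEF library.

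Of 12 tested S100 and calcium uptake genes, 2 rose and none fell in RepB+/-, and 3 rose and none fell in RepB-/-, against WT, beside 16% and 12.8% called over all genes. The median log2 changes were -0.01 and 0.18, beside 0.02 and 0.01 over all genes. S100a4, a calcium-binding protein linked to cell motility, rose by 1.09 in RepB-/- against WT (SE 0.16, adjusted p = 0.00041, edgeR); it was 0.23 (SE 0.17, adjusted p = 0.384) in RepB+/- against WT.

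**Figure D3:**
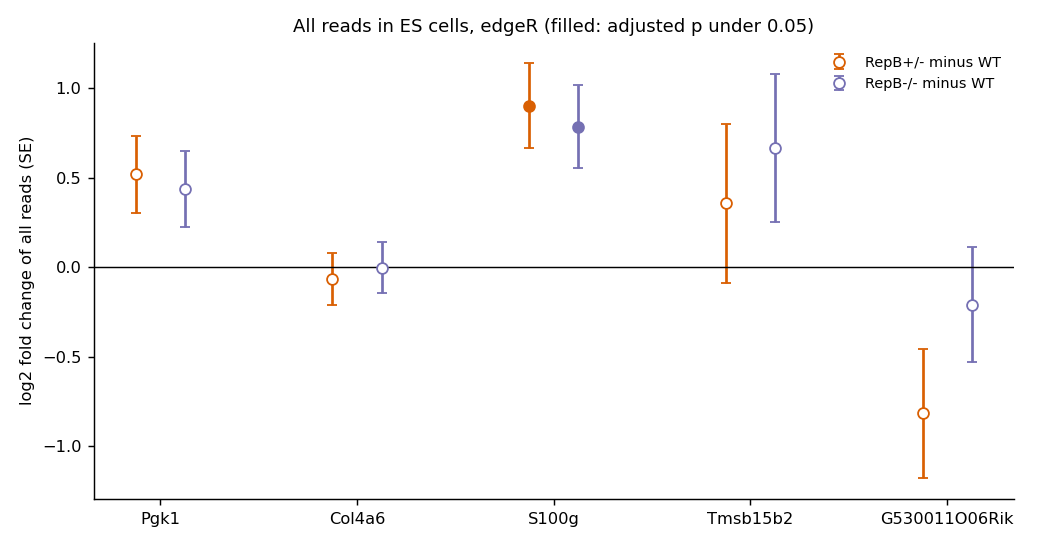
Log2 fold change of all reads against WT (vertical axis) with its SE for each gene in RepB+/- and RepB-/- ES cells; filled points passed the edgeR test at an adjusted p of 0.05. S100g alone is filled, with 0.90 in RepB+/- and 0.79 in RepB-/-.

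Tmsb15b2 encodes a beta-thymosin, one of a family of short peptides that bind actin monomers. Its listed exon is chrX:133489529-133490021 (mm9), 32.8 Mb from Xist, and Tmsb15l is listed with the same exon. The 250 bases before the start of the neighbouring copy Tmsb15b1 are close to identical to those of Tmsb15b2 where they align. These bases lie before the start, so they do not show how alike the transcripts are. The transcripts were not compared. Both lines give the 250 bases before the gene's start from RefSeq, and capitals mark bases that differ between the copies where the windows align.
Tmsb15b2 (GRCm38.p6, chrX:136957980-136958229, minus strand): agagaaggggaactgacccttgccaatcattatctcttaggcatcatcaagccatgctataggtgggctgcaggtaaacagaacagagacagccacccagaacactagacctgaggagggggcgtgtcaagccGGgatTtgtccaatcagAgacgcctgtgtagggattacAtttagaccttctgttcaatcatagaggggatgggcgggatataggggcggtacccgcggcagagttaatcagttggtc
Tmsb15b1 (GRCm38.p6, chrX:136976875-136977124, minus strand): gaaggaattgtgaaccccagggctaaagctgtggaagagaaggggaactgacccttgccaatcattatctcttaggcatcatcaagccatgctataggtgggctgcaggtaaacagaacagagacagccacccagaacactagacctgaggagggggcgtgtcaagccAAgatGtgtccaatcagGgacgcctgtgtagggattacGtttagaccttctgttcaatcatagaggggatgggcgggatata
Over 215 aligned bases, 210 were identical (97.7%).

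Tmsb15b2 had 6 of 44 and 0 of 4 allele-assigned reads from 129 in RepB+/-, 2 of 48 and 3 of 22 in RepB-/-, and 0 of 28 and 0 of 9 in WT libraries. The shares were 13.6% and 0% in RepB+/-, 4.17% and 13.6% in RepB-/-, and 0% in WT, where 0 reads allow up to 10.7% and 33.3%. Libraries of one genotype thus fell on both sides of 10%, the summed share in RepB+/- was 12.5%, and the intervals of the RepB and WT libraries overlapped. A difference between genotypes was not detectable at this depth. The copy Tmsb15b1, with few reads, was given mostly to 129: of its allele-assigned reads 7 of 9 in the first RepB+/- library, 4 of 5 and 2 of 4 in RepB-/- and 2 of 2 and 1 of 2 in WT came from 129, and the second RepB+/- library had none. Tmsb15l had 129 reads in the first WT library as well, 3 of 22. Tmsb15b2 and Tmsb15l share the listed exon, and the transcripts of Tmsb15b2 and Tmsb15b1 were not compared, so the share of each is uncertain. The part of Tmsb15b2 reads given an allele was 88% and 57.1% in RepB+/-, 77.4% and 66.7% in RepB-/-, and 100% in both WT libraries; the test described for Pgk1 did not call it in RepB-/- against WT (adjusted p = 1.00, edgeR), and no fold is given since no WT read was left unassigned. Neighbouring genes were also low in RepB cells: Slc25a53, a mitochondrial carrier 26.1 kb away, averaged 7.65% and 10.97% in RepB+/- and RepB-/-. Its RepB+/- value averages 15.3% of 85 reads and 0% of 13 reads, and its summed shares were 13.3% and 11.4%. Fam199x averaged 17.3% and 25.7% in RepB+/- and RepB-/-. On the other side, BC065397 averaged 21.4% and 23.7%. All 3 of these genes lay under the X-linked median in both RepB genotypes.

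All Tmsb15b2 reads were at 1.76 and 0.905 CPM in RepB+/-, 2.14 and 1.51 CPM in RepB-/-, and 1.45 and 0.763 CPM in WT libraries, with overlap. The log2 fold changes of 0.36 (SE 0.44, adjusted p = 0.62) and 0.67 (SE 0.41, adjusted p = 0.318) against WT did not pass the edgeR test. Of 4 beta-thymosin genes tested none was called. Tmsb4x, the major X-linked beta-thymosin, changed by 0.39 (SE 0.15, adjusted p = 0.0816) and 0.32 (SE 0.14, adjusted p = 0.17, edgeR) without passing, at 523 to 811 CPM. MEF gave 0 reads of Tmsb15b2 in RepB and 1 in WT.

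G530011O06Rik is annotated by RefSeq as a long non-coding RNA of no stated function. Its listed exon is chrX:166412975-166414722 (mm9), 65.8 Mb from Xist, and no X-linked gene of the tables is listed beyond it. RefSeq also holds an entry of the same name on the Y chromosome. Both windows of 250 bases before the start are shown because they are nearly the same, and capitals mark the bases that differ.
G530011O06Rik X (GRCm38.p6, chrX:169978918-169979167, minus strand): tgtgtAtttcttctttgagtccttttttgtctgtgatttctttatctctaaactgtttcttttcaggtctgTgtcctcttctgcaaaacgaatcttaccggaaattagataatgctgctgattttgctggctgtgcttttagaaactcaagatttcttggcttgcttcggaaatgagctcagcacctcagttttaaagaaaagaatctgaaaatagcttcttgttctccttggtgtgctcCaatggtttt
G530011O06Rik Y (GRCm38.p6, chrY:90755051-90755300, minus strand): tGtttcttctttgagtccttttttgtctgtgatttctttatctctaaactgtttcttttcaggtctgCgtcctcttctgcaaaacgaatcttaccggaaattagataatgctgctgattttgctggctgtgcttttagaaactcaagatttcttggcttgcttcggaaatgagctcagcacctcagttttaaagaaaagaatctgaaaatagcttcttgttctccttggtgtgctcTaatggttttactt
They were identical at 243 of 246 aligned bases (98.8%). The transcripts of both entries were not compared, and how the counting placed their reads is not given in the sources used here. The share of this gene is therefore uncertain. No read was counted for any of the 21 Y-linked genes of the tables in any of the 8 libraries.

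Of its allele-assigned reads, 1 of 31 and 0 of 11 were from 129 in RepB+/-, 1 of 59 and 0 of 30 in RepB-/-, and 0 of 38 and 0 of 30 in WT libraries. The mean shares were 1.61% ± 2.28 in RepB+/-, 0.85% ± 1.20 in RepB-/- and 0% in WT (SD, n = 2 each), with limits of 7.89% and 10% on the WT values. An allele was given to 91.2% and 84.6% of its reads in RepB+/-, 92.2% and 73.2% in RepB-/-, and 90.5% and 96.8% in WT. The genotypes overlapped, and with 2 reads from 129 in 4 RepB libraries no difference was detectable. Its nearest measured neighbours, Mid1 (a ubiquitin ligase, 290 kb away) and Hccs (which attaches heme to cytochromes, 664 kb away), averaged 26.8% and 37.8% in RepB+/-, 31.9% and 40.6% in RepB-/-, and 3.42% and 8.81% in WT cells. All reads were at 1.19 and 1.68 CPM in RepB+/-, 2.21 and 1.87 CPM in RepB-/-, and 2.17 and 2.63 CPM in WT. The log2 fold change of -0.82 in RepB+/- against WT (SE 0.36, adjusted p = 0.137) and of -0.21 in RepB-/- against WT (SE 0.32, adjusted p = 0.721) did not pass the edgeR test. MEF gave 5 reads in RepB and 1 in WT, too few for a comparison.

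**Figure D4:**
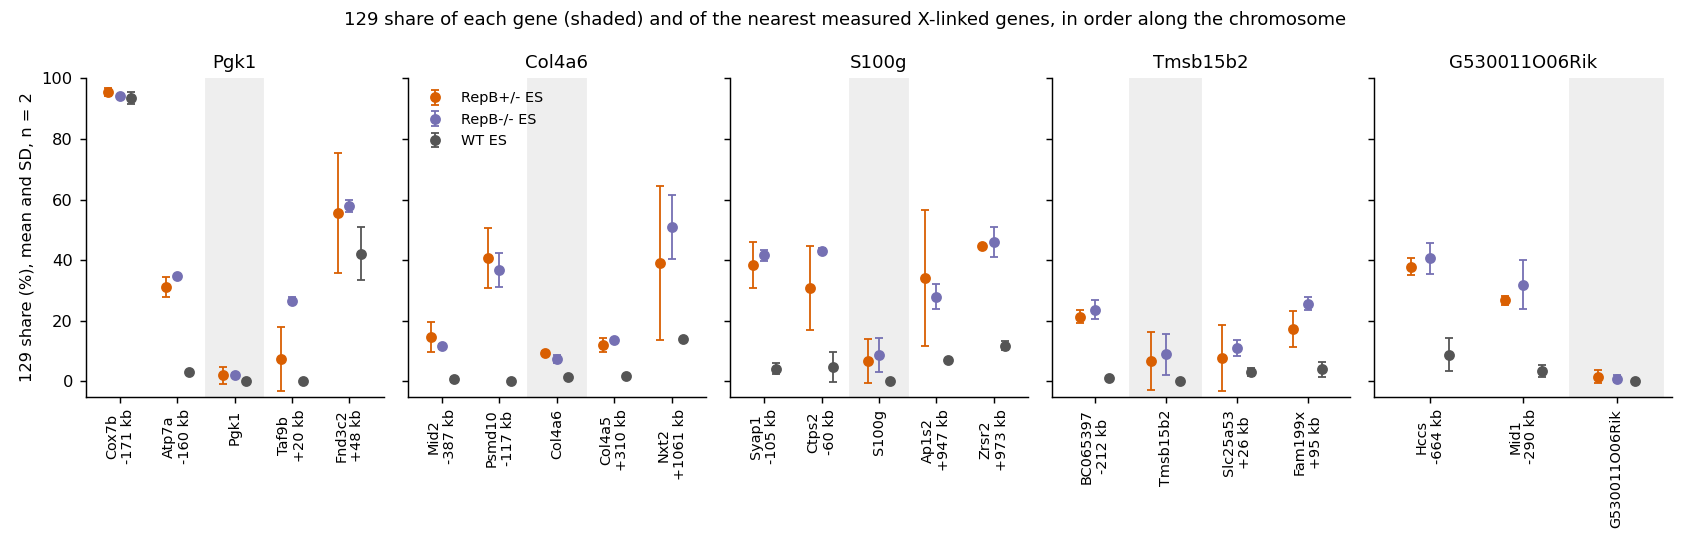
Mean 129 share with SD (%, vertical axis, n = 2 libraries) of each gene (shaded) and its nearest measured X-linked genes, labelled by distance in kb. The neighbours of S100g lie between 28.0% and 46.1% in RepB cells. Slc25a53 beside Tmsb15b2 (7.65% and 10.97%) and Col4a5 beside Col4a6 (12.0% and 13.8%) are near the values of the gene they flank. Also beside Col4a6, Mid2 is at 14.7% and 11.6%, Psmd10 at 40.7% and 36.6%, and Nxt2 at 39.0% and 51.1%, in RepB+/- and RepB-/-. The RepB+/- value of Slc25a53 averages 15.3% and 0%.

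Between the RepB genotypes the members did not differ detectably. For all reads, none of the 5 was called in RepB-/- against RepB+/-, beside 0.0858% of 15149 genes called; at an unadjusted p under 0.05 none of the 5 passed either. The log2 fold changes ran from -0.12 (SE 0.22) for S100g to 0.61 (SE 0.35) for G530011O06Rik. The X-linked genes most like the members in the higher of the 2 RepB mean shares were Eif2s3x at 1.25%, Cxx1c at 4.35%, Xlr3b at 6.12%, 1700011M02Rik at 6.75% and Zmat1 at 10.5%, over 4 libraries. Eif2s3x is a subunit of translation initiation factor 2 with a Y-linked relative. It had 0 of 49 allele-assigned reads from 129 in RepB+/-, 1 of 76 in RepB-/- and 0 of 44 in WT libraries. An allele was given to 7.10%, 8.79% and 8.84% of its reads. In MEF 0 of 21 allele-assigned reads in RepB and 0 of 15 in WT were from 129. With so few reads assigned, a share near 0% does not by itself show silencing. Cxx1c had 129 reads in WT as well, at a mean share of 2.25% ± 2.05 beside 2.73% ± 3.86 in RepB+/- and 4.35% ± 1.65 in RepB-/- (SD, n = 2 each). Xlr3b and 1700011M02Rik had 6.12% and 3.26% in RepB+/-, 4.55% and 6.75% in RepB-/-, and 6.44% and 4.34% in WT cells. In MEF the median 129 share of X-linked genes was 0.371% in RepB (256 genes) and 0.147% in WT (215 genes), and 46.1% and 49.8% of these genes had no read from 129. No member had one in either line, but only Pgk1 in both lines and Col4a6 in WT had more than 5 allele-assigned reads there.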

How the data were processed

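RNA-seq counts of 6 differentiated ES and 2 MEF libraries were used. The 3 deposited tables hold the authors' whole-number counts per gene in 24 columns: all reads, reads given to 129 and reads given to CAST (headed mus and cas, read as 129 and CAST from the strain background in the labels). They have the layout of featureCounts on mm9, per the file headers; featureCounts, TopHat, Novoalign, SAMtools, bedtools and cutadapt are named in the submitters' processing notes, and strand setting and multi-mapping are not given in the sources used here. Values were not normalized by the authors.

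All reads were tested with edgeR 4.0.16 in R 4.3.3 (filterByExpr with minimum count 10 and total 15, TMM, quasi-likelihood F-test, genotype as the only term, 6 ES libraries in one fit). Benjamini-Hochberg adjusted p-values over all 15149 genes were called at 0.05. CPM in ES cells are TMM-scaled and in MEF relative to total counts. The 129 share is 129 reads over 129 plus CAST reads, with exact Clopper-Pearson 95% intervals and a floor of 3 counts for 0 (SciPy 1.17.1); where 3 or fewer reads were assigned no limit is given. MEF log2 ratios used a prior count of 2. The test of assigned against unassigned reads fitted both kinds of reads of each library in edgeR, for genes averaging 20 allele-assigned reads. Both tests were tested on simulated data. Promoter windows are RefSeq's, aligned with Biopython 1.88. DESeq2 1.42.0 was an alternative, with others listed in the closing section.

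Members and gene lists were chosen with earlier results of these data known. Named genes were the members, 2 measured neighbours on each side (1 of them is not reported here), the 5 non-members with the lowest RepB shares, the 2 called genes of lowest adjusted p per list in RepB-/- against WT, X-linked list genes and Xist; other names (Slc25a53 at the threshold, copies of Tmsb15b2, Y-linked genes) were added after their values were seen.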

Additional observations from a re-analysis of the deposited data

How the results depend on the processing

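The number of X-linked genes meeting the rule was 9; it was 10 with a minimum of 10 allelic reads, 7 with summed reads and 6 with every RepB library under 10%, and moved to 4 with a minimum of 50 reads, 4 at 5% and 24 at 15%. With summed reads, S100g and Tmsb15b2 left. Members called for all reads were 1 in RepB+/- against WT, 1 in RepB-/- against WT and 0 between the RepB genotypes. Without the filter on low counts 2 members, S100g and Pgk1, were called in both comparisons with WT, and leaving out one library gave 0 to 2 and 0 to 1. Leaving out one library gave 790 to 2620 genes called (main 2418) and 90 to 228 X-linked genes (main 213) in RepB+/- against WT, 687 to 2760 (main 1933) and 93 to 259 (main 206) in RepB-/- against WT, and 3 to 66 (main 13) and 0 to 5 (main 0) in RepB-/- against RepB+/-. In the last comparison DESeq2's Wald test called 30 genes and 1 X-linked gene, and no filter 124 and 8. With the replicate block, 2 members (Pgk1 joined, adjusted p = 0.0493, edgeR) and 3619 genes were called in RepB+/- against WT. The block called 3160 genes in RepB-/- against WT, and 80 genes with 3 X-linked genes between the RepB genotypes. Same-numbered libraries correlated weakly across genes in their deviations (r = 0.11, 0.07 and 0.19), and the main test did not take the numbers as pairs. A weak correlation does not show that pairing is absent. The block ended no call of a member. The near-zero log2 change of Col4a6 in RepB-/- against WT turned to 0.0053 with TMM from autosomal genes and 0.0093 without the filter. Over libraries left out, it ran from -0.34 to 0.18 in RepB+/- against WT, from -0.11 to 0.10 in RepB-/- against WT and from -0.18 to 0.34 between the RepB genotypes; Tmsb15b2 ran from -0.36 to 0.94 in RepB+/- and from 0.35 to 1.26 in RepB-/- against WT, G530011O06Rik from -0.99 to -0.49 and from -0.36 to -0.08, and between the RepB genotypes Pgk1 ran from -0.29 to 0.27 and S100g from -0.47 to 0.32. In MEF, Col4a6 stayed at -5.09 with total counts and -5.49 with a prior count of 0.5, beside -5.21. The cause of these changes was not tested. Depth limits Tmsb15b2 and G530011O06Rik most, with 25.8 and 33.2 allele-assigned reads per ES library on average.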
